A study of Oryza sativa Indica Group with 12 samples.

Results

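Rice seedlings of the indica cultivar IR64 that had been without potassium and were resupplied with it for 6 h (KR) were compared with seedlings that had never been deprived (KP). Each group comprised 3 of the 12 arrays of the series, so the comparison rests on 6 arrays and on 57258 of the 57381 probe sets, since 123 control probe sets were left out. All seedlings were grown for 5 d before transfer. KP seedlings then spent 5 d on medium with 0.409 mM K2SO4, and KR seedlings spent 5 d on medium without it and a further 6 h on medium with 0.409 mM K2SO4. The other groups were seedlings after 5 d without potassium (KM) and seedlings before transfer (0h), 3 arrays each. RNA came from whole seedlings without the seeds, so a different share of root and shoot tissue and a different amount of RNA per cell cannot be told apart in any value below. The labels call the 3 samples of a group biological replicates and do not say whether they were grown separately, so p-values measure only the spread between these samples. The hours of harvest are not stated in the sources used here.

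Potassium is the main inorganic cation of plant cells. Roots take it up through channels such as AKT1 and through HAK transporters, whose activity is set in part by calcium sensors of the CBL family and the CIPK kinases they bind. Potassium charges the vacuole, drives the movement of water and stomatal opening, and is needed by enzymes such as pyruvate kinase, and shortage of it is known to act on iron nutrition, abscisic acid and jasmonate signalling, sugar transport and photosynthesis.

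After 6 h of resupply 657 probe sets were higher and 1177 were lower in KR than in KP, which is 1.15% and 2.06% of those tested and 3.2% together. A probe set was called when its change was at least 2-fold and limma, with Benjamini-Hochberg adjustment across the 57258 probe sets, gave an adjusted p under 0.05. Falls were also larger than rises, with 277 of the lower and 121 of the higher probe sets changed at least 4-fold. The median size of a called change was 1.43 on the log2 scale among the lower and 1.33 among the higher probe sets. One of the groups had a mean log2 value under 3.5, here called near background, for 221 of the lower and 71 of the higher probe sets, and the size of those changes is uncertain. The KR and KP arrays did not overlap in 650 of the higher and 1163 of the lower probe sets, and did not overlap in 62.4% of all probe sets. The KR arrays were slightly brighter as a whole, with median log2 values of 2.79 to 2.83 against 2.71 to 2.72 in KP. The median change over all probe sets was 0.05 on the log2 scale, and changes below are given relative to the deposited scale. Bringing all arrays to the same median moved the median change to -0.06 and gave 499 higher and 1446 lower probe sets, so that 25.7% of calls were rises where the deposited scale gave 35.8%.

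**Figure D1:**
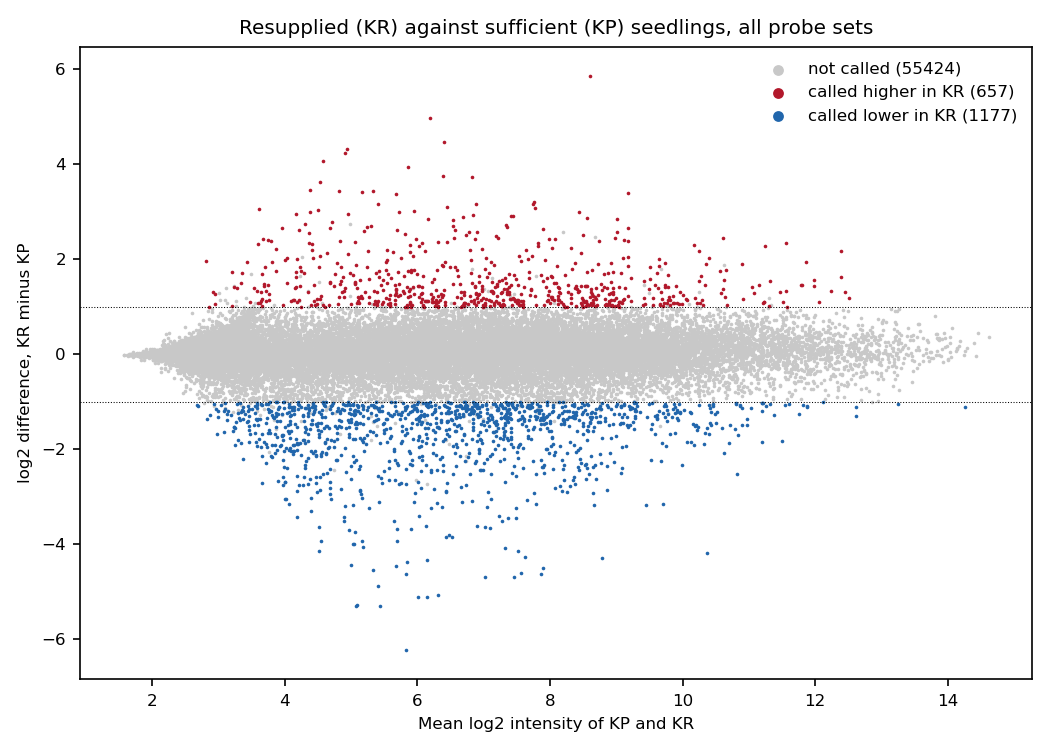
Each point is a probe set, with the mean log2 intensity of KP and KR on the x axis and the log2 difference KR minus KP on the y axis, and dotted lines at 2-fold. The 657 called higher lie above and the 1177 called lower lie below, and the falls reach further from 0 than the rises.

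Control probe sets for ribosomal RNA, which are not among those tested, were far brighter on KR replicates 1 and 2 than on the other arrays of the 3 groups on treatment medium. On the first 18S probe set KR replicates 1, 2 and 3 read 9.26, 9.03 and 5.08 on the log2 scale, and the KP arrays 5.30, 5.70 and 4.99. The differences between 3′ and 5′ control probe sets, a measure of RNA integrity, were 1.94 to 2.30 in KR and 1.83 to 2.24 in KP for glyceraldehyde-3-phosphate dehydrogenase. The 0h arrays, which enter the fit only through the shared spread, stood apart at 5.15 to 5.95, and a fit without them called 658 higher and 1165 lower. With KR replicate 3 alone standing for KR, 638 probe sets were higher and 989 lower, and 447 and 836 of them were among the 657 and 1177. The part of ribosomal RNA in the differences was not tested.

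**Figure D2:**
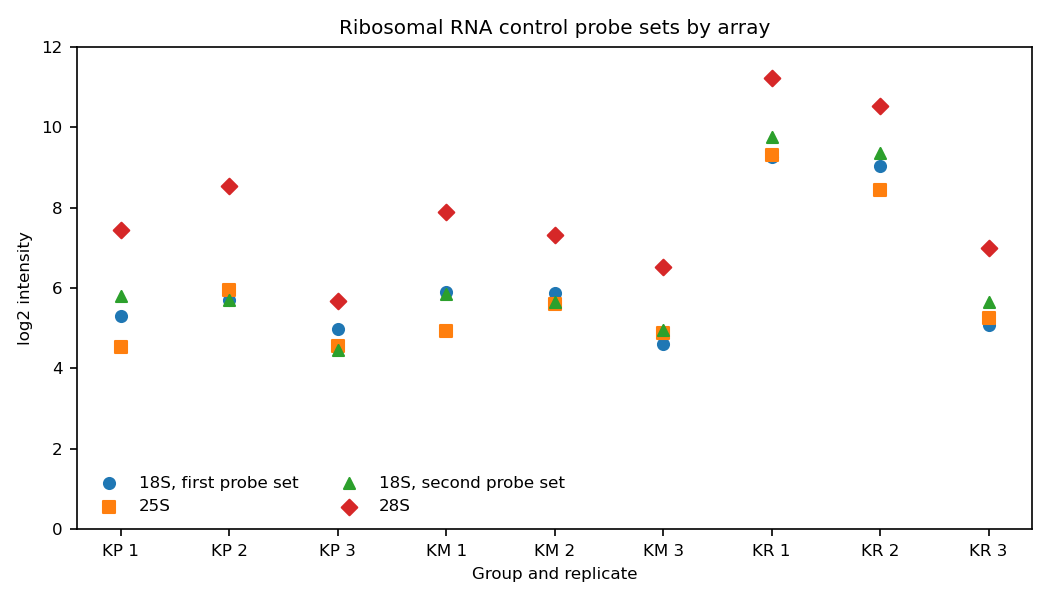
The log2 intensity of 4 ribosomal RNA control probe sets on the y axis is shown for each KP, KM and KR array on the x axis. All 4 are highest on KR replicates 1 and 2, and KR replicate 3 lies with the KP and KM arrays.

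Of 15 organ markers 3 were called (20%), against 6.12% of all genes with a probe set. Of 3 root markers, PIP2;5 fell and the silicon transporters Lsi1 and Lsi2 were not called, and the log2 of their summed intensity was 11.78 to 12.57 in KP and 12.29 to 12.43 in KR. Of 4 leaf markers, rubisco activase (rca) fell by 1.04 ± 0.11 on the log2 scale, which passed 2-fold by little and did not without KR replicate 1, and rbcS and GLO1 were not called. The summed leaf markers were 14.63 to 14.81 in KP and 14.49 to 14.55 in KR. Of 8 seed storage and oil body genes 6 were near background in both groups and RAG2 was called lower, though not without KP replicate 3.

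The KM arrays give the levels of seedlings that were not resupplied. KM and KR are different seedlings, so a step from KM to KR below is a difference between groups. The KM and KR comparisons share the KP arrays, so the counts that follow describe the 2 together and carry no test. Of the 1177 probe sets lower in KR than in KP, 389 (33.1%) had also been called lower in KM, 753 (64.0%) were not called in KM and 35 were called higher in KM. Of the 657 higher in KR, 96 (14.6%) were also called higher in KM, 528 (80.4%) were not called in KM and 33 were called lower in KM. For comparison, the calls of KM against KP took in 2.54% of all probe sets. Only probe sets called in KM on the other side of KP, 33 of the higher and 35 of the lower, are described below as past the sufficient level. A missing call in KM does not place KM at the KP level. The 753 and 528 probe sets not called in KM had a median KM difference from KP of -0.25 and 0.24 on the log2 scale, on the side of KR, and 445 and 316 of them were also called in KR against KM in the same direction.

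Gene lists drawn up by family and pathway covered 1026 genes with 1 probe set each, of which 32 were called higher and 88 lower in KR. Over all 17905 genes with a probe set, 374 (2.09%) were called higher and 722 (4.03%) lower, 6.12% together, and the median change was 0.05 on the log2 scale. These shares are the background for the lists below. The 32 higher and 88 lower of the 1026 list genes were larger shares than this background, in both directions. A list can therefore lie above the background without differing from the other list genes. Whether any list differed from the other list genes was not tested.

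**Figure D3:**
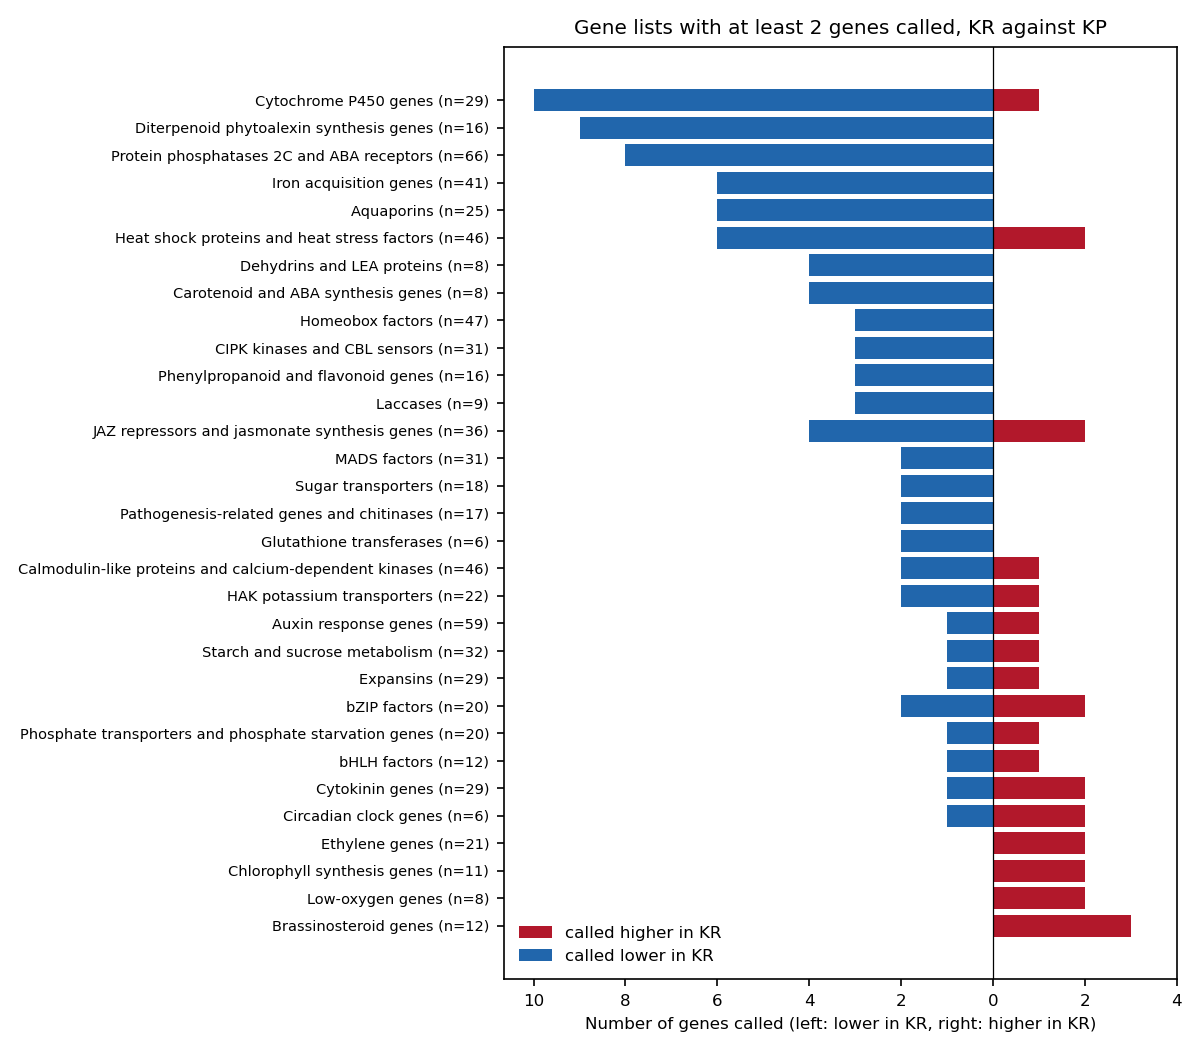
Bars give the number of genes called lower (left) and higher (right) in KR than in KP on the x axis for each gene list with at least 2 calls on the y axis, with the number of genes measured in brackets. The diterpenoid phytoalexin list has 9 of 16 genes lower, and the brassinosteroid list has 3 of 12 higher.

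All called iron acquisition genes were below the sufficient level. Grasses take up iron by secreting mugineic acids, which are made from nicotianamine. Of 41 genes of this list 6 were lower (14.6%) and 0 higher, where 11 were near background in both groups and the median change was 0.02 on the log2 scale. NAS1, a nicotianamine synthase, read 7.92, 9.24 and 6.00 on the KP arrays and 2.56, 2.38 and 2.35 on the KR arrays. KM, at 5.01, 4.42 and 4.03, lay between them. NAS1 was thus 39.2-fold lower in KR, with a log2 difference that fell by 5.29 ± 0.70 (limma SE) and an adjusted p of 7.00e-04, and it was lower in KR than in KM as well. Its tandem neighbour NAS2 went from 7.45, 8.33 and 5.89 in KP to 3.47, 2.47 and 2.42 in KR, 21.7-fold lower (adjusted p = 5.94e-04). The groups did not overlap for either gene, but the 2 genes are similar and the probe sets may share transcripts, and both KR groups were near background, so the size of these falls is uncertain. Leaving out KP replicate 2 or 3 gave 23.2-fold or 71.1-fold for NAS1, and leaving out KP replicate 3 gave 34.4-fold for NAS2.

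The other called members were the nicotianamine aminotransferase NAAT1 (-1.46), the zinc transporter ZIP5 (-1.25), the metal transporter Nramp1 (-1.16) and the iron regulator IRO3 (-1.09), given as log2 differences. The call of ZIP5 held under every alternative, while NAAT1 was lost without KP replicate 1 or 2 or KR replicate 2 or 3, Nramp1 without KP replicate 2 and IRO3 without KP replicate 1. Outside the list, the ferric reductase gene FRO1 read 9.26, 9.32 and 9.08 in KP, 4.65, 4.43 and 4.15 in KM and 6.02, 6.39 and 6.49 in KR, so that KR lay above KM and below KP. FRO1 remained 7.57-fold lower in KR than in KP (log2 difference -2.92, adjusted p = 1.08e-05). The magnesium and proton exchanger MHX1 was 9.26-fold lower in KR, with 5.72, 5.43 and 5.18 against 8.66, 8.52 and 8.79 in KP, and unlike FRO1 it was not called in KM (8.56). The aluminium transporter Nrat1 fell by 2.33 ± 0.23 on the log2 scale.

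The called genes of the abscisic acid and drought protection lists were all lower. Abscisic acid is the hormone of drought and desiccation. Its signal passes through receptors, certain protein phosphatases 2C that repress it and SAPK kinases. Of 8 dehydrins and LEA proteins, hydrophilic proteins that protect cells from drying, 4 were lower and 0 higher, and their median change was -2.14 on the log2 scale. The late embryogenesis abundant gene LEA19 read 7.47, 8.49 and 6.85 in KP and 3.01, 2.76 and 3.39 in KR, a fall of 4.55 ± 0.79 on the log2 scale (adjusted p = 0.00233), with KM at 7.28, 5.18 and 5.14. No KR array reached a KP array, and the KR mean was near background, so the size of the fall is uncertain. The dehydrin LIP9 changed less but with little spread, from 10.46, 10.46 and 10.46 in KP to 9.16, 8.79 and 9.24 in KR (log2 difference -1.40, adjusted p = 2.36e-04), with 8.91 in KM. RAB21 and RAB16C were also called, RAB21 not without KP replicate 2 or any 1 KR array and RAB16C not without KP replicate 2. RAB16D (-2.73) and RAB16B (-2.43) had changes of similar size at adjusted p of 0.0539 and 0.0537. Without KP replicate 2 the list kept 2 of its 4 calls, and with KR replicate 3 alone it kept 1.

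Of 66 protein phosphatases 2C and abscisic acid receptors 8 were lower (12.1%) and 0 higher. The phosphatases were matched by family name, and those that act in abscisic acid signalling were not separated from the others. PP2C32 and PP2C78 lost their calls under 8 and 5 of 16 alternatives. The phosphatase PP2C09 read 8.45, 8.48 and 9.08 in KP and 6.11, 5.49 and 6.36 in KR, 6.41-fold lower (adjusted p = 3.55e-04), and PP2C68 was 6.23-fold and PP2C06 4.84-fold lower. KM levels were 8.25 for PP2C09 and 7.52 for PP2C06, above the KR levels in both cases. The kinase SAPK1 of the same pathway was 2.49-fold lower, with 6.41, 6.46 and 6.54 in KR and 7.65, 7.76 and 7.94 in KP. The list kept 5 calls without KP replicate 1. Of 8 carotenoid and abscisic acid genes 4 were lower and 0 higher, and these were the 3 phytoene synthases, which carry out the first committed step of carotenoid synthesis, and the abscisic acid 8′-hydroxylase ABA8OX2, which breaks the hormone down. PSY2 was at 9.29, 9.68 and 9.41 in KP and 7.69, 8.01 and 7.84 in KR (log2 difference -1.62, adjusted p = 1.23e-04), with PSY3 at -1.25 and PSY1 at -1.08. PSY2 and PSY3 had already been called lower in KM, and PSY1, at 8.48 in KM against 9.29 in KP, had not. BZIP23, a transcription factor of abscisic acid responses, fell by 1.24 ± 0.11 on the log2 scale.

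Among transport genes few families moved as a whole, and the called members were mostly lower. Of 22 HAK potassium transporters HAK27 and HAK16 were lower and HAK7 was higher. HAK27 read 6.82, 6.38 and 6.32 in KP, 4.59, 4.95 and 5.17 in KM and 2.56, 2.62 and 2.57 in KR, so that its level after resupply was the lowest of the 3 and near background. HAK16 was 3.86-fold lower in KR (5.91, 5.16 and 5.79) than in KP (7.34, 7.50 and 7.87) and was not called in KM. HAK7 rose by 1.03 ± 0.15 on the log2 scale, just past 2-fold, and the call was lost without KP replicate 3 or KR replicate 3 and under both other scalings. Of 4 potassium channels and HKT transporters 0 were called, and AKT1, the main uptake channel, had a log2 difference of 0.77 (adjusted p = 0.00138), under 2-fold. Of 31 CIPK and CBL genes CIPK25 (-2.08), CBL4 (-1.38) and CIPK5 (-1.17) were lower, the last of these not without KP replicate 3.

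Of 25 aquaporins, the channels for water and small solutes, 6 were lower (24.0%) and 0 higher. They were PIP2;5, PIP1;3 and PIP2;4 of the plasma membrane, TIP1 and TIP2 of the vacuole and the silicon channel Lsi6, with log2 differences of -1.06 to -1.58. PIP1;3 read 11.55, 11.72 and 12.13 in KP, 10.89, 10.26 and 10.19 in KM and 10.58, 10.66 and 10.58 in KR, so that both KM and KR lay below all KP arrays and the KR values fell within the KM range. The call of PIP2;4 was lost without KP replicate 3, and with KR replicate 3 alone 3 of the 6 were called. The sugar transporters SWEET2b and SWEET15 were lower, and SWEET15 was near background in KR, at 2.69, 2.54 and 2.53 against 5.45, 5.10 and 5.48 in KP, while 16 of the 18 sugar transporters were not called. The ammonium transporter AMT1 was at 8.60 in KP, 6.79 in KM and 7.50 in KR, and fell short of 2-fold without KR replicate 2. The phosphate transporters Pht1;1 (1.01) and Pht1;4 (-1.16) were called in opposite directions, and neither call held without KP replicate 3, nor that of Pht1;1 without KR replicate 1 or 3. With log2 values under 4 set to 4, the log2 difference of Pht1;4 was -0.199 (adjusted p = 0.951), so its fall lay mostly in low values. Against the general direction, the copper transporter gene COPT1 rose by 1.45 ± 0.16 and the ABC transporter gene mdr17 by 1.32 ± 0.22 on the log2 scale, and both calls held under every alternative tried.

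**Figure D4:**
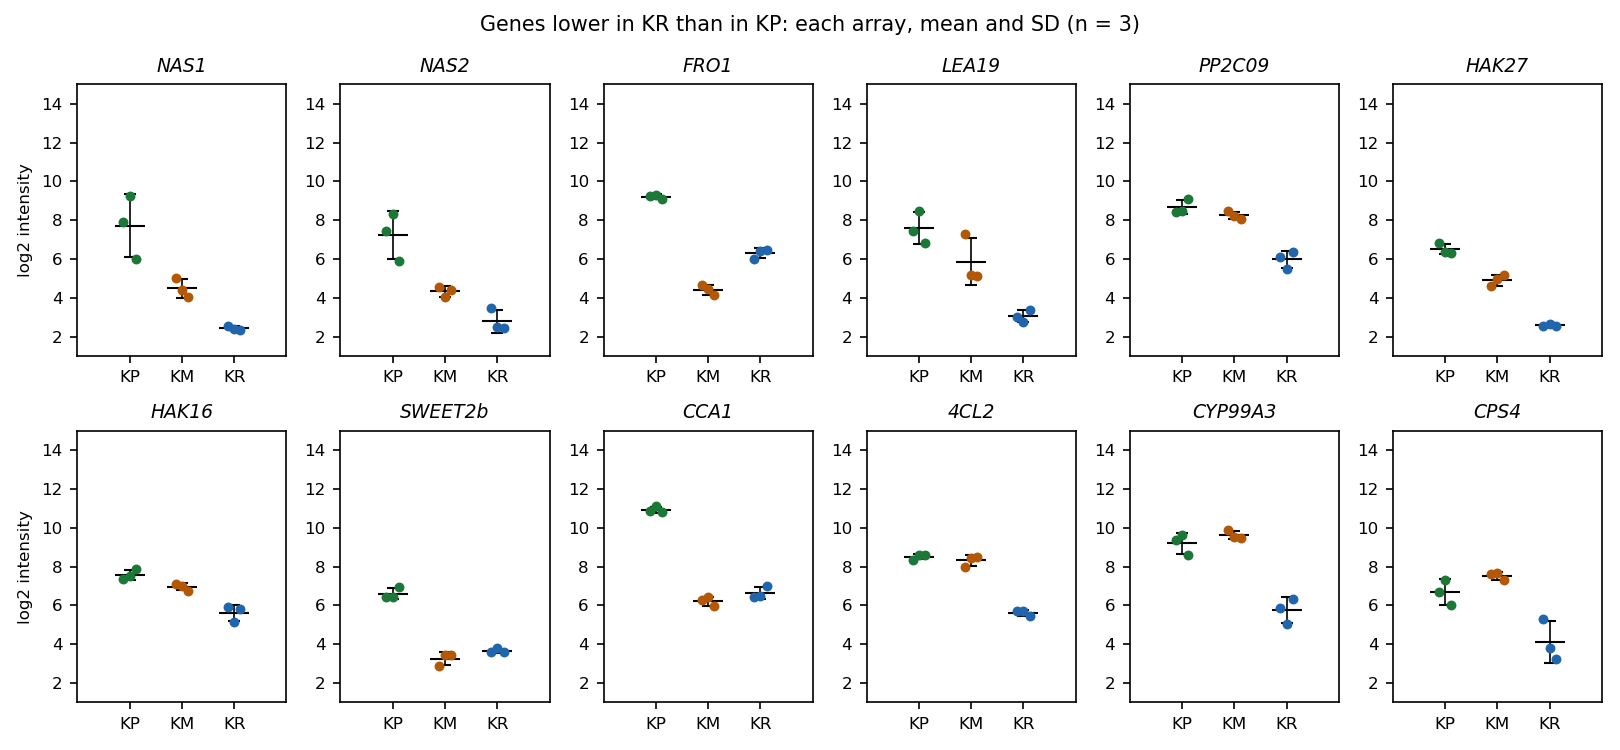
Each panel gives the log2 intensity on the y axis of a gene lower in KR than in KP for the 3 arrays of KP, KM and KR, with the mean and SD (n = 3 arrays) as a bar with whiskers. NAS1, HAK27 and 4CL2 have their lowest values in KR, and CCA1 and SWEET2b have KM and KR alike below KP.

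Clock genes differed in both directions. The plant clock is a loop in which CCA1 acts in the morning and pseudo-response regulators (PRR) follow through the day. CCA1 was at 6.44, 6.51 and 6.99 in KR, close to its KM values of 6.28, 6.42 and 5.98 and far under the KP values of 10.89, 11.12 and 10.80. The pseudo-response regulator PRR95 read 9.76, 9.60 and 9.69 in KP, 8.70, 8.50 and 8.59 in KM and 11.46, 11.44 and 11.41 in KR. It was lower in KM than in KP and 3.37-fold higher in KR than in KP (adjusted p = 2.54e-06). HD2, which encodes PRR37, rose by 1.15 ± 0.17 on the log2 scale and passed 2-fold except without KR replicate 2. PRR73 (0.82), PRR1 (0.79) and GI (0.91) had smaller log2 differences with adjusted p under 0.05. If KR seedlings were taken later in the day than KP seedlings, resupply and 6 h of the day cannot be told apart for these genes or for any that follow the clock. The hour of the KM harvest is not stated either, so the same limit holds for KM against KP and against KR.

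The called chlorophyll synthesis genes were above the sufficient level. Of 11 genes 2 were higher and 0 lower, and these were the protochlorophyllide reductases PORA and PORB, which carry out the light-dependent step. PORA read 8.45, 8.52 and 8.29 in KP, 6.82, 6.93 and 6.93 in KM and 9.85 to 10.25 in KR, 3.07-fold over KP (adjusted p = 2.76e-04). PORB followed the same order with less spread, at 10.14, 10.17 and 10.12, 9.05, 9.05 and 9.17 and 11.17, 11.18 and 11.22, but its rise of 1.05 passed 2-fold by little and fell under it with both other scalings. In both genes the groups lay apart, with KM lowest and KR highest. The transcription factor GLK1, which activates chloroplast genes, was at 5.89 in KM, 9.06 in KP and 9.67 in KR, and the magnesium chelatase subunit gene CHLH was at 7.64, 10.59 and 10.80 in the same groups. Neither was called in KR against KP, and 6 of the 11 genes were higher in KR than in KM. Of 7 light-harvesting and photosystem genes 0 were called, and the light-harvesting gene RCABP89, at 10.51 in KM, was at 13.13 in KP and 13.69 in KR. The senescence gene SGR, which promotes chlorophyll breakdown, was 2.98-fold lower in KR.

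Diterpenoid phytoalexin genes gave the highest share of falls among the lists with more than 10 genes. Momilactones and phytocassanes are antimicrobial compounds that rice makes from geranylgeranyl diphosphate, through cyclases (CPS and KSL) and cytochromes P450. Of 16 genes 9 were lower (56.2%) and 0 higher, with a median change of -1.19 on the log2 scale, and 13 of 16 were lower in KR than in KM. CYP99A3 read 9.36, 9.63 and 8.62 in KP, 9.87, 9.55 and 9.49 in KM and 5.88, 5.04 and 6.36 in KR, 10.8-fold lower than KP (adjusted p = 4.44e-04). CYP99A2 was 9.39-fold lower (3.65, 3.77 and 3.54 in KR, 6.89, 7.54 and 6.22 in KP). The cyclase genes CPS4 and KSL4 were lower by 2.56 ± 0.58 and 2.75 ± 0.90 on the log2 scale, and neither was called in KM. Without KR replicate 1 the fall of CPS4 was 3.16 on the log2 scale.

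The list was drawn up by gene name and not by position, but it holds known genes of these pathways. Their lying in runs is therefore a description and not an independent result. By the order of genes in the RefSeq assembly of Japonica rice (ASM3414082v1), CPS4, CYP99A3, MAS, KSL4 and CYP99A2 lie in a run on chromosome 4 with at most 2 other genes between neighbours, and all 5 of the run were called lower in KR. With log2 values under 4 set to 4, MAS and KSL4 of this run were no longer called. Of the run, only CYP99A3 kept its call under every alternative. Of 8 list genes in a run on chromosome 2, CYP76M5, CYP76M8 and CYP71Z6 were called lower, and CPS2, KSL7, CYP71Z7, CYP76M6 and KSL5 were not. CPS2 was at 7.12 in KP, 8.89 in KM and 6.67 in KR, and CYP71Z7 at 8.40, 10.50 and 8.32. The KM level of CYP71Z7 was called above KP and that of CPS2 was not, and neither gene was called in KR against KP. CYP701A8, elsewhere in the genome, was 3.46-fold lower. The calls rest partly on single arrays. Without KP replicate 2, or with KR replicate 3 alone, the list had 5 calls where it had 9, and with log2 values under 4 set to 4 it had 4. The KR means of KSL4, MAS and CYP76M5 were near background, and the call of KSL4 was lost without any 1 of 5 arrays.

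Some phenylpropanoid, laccase and other defence genes were also lower. Of 16 phenylpropanoid and flavonoid genes 3 were lower and 0 higher. The 4-coumarate:CoA ligase gene 4CL2, which activates hydroxycinnamic acids for lignin and phenolics, read 8.35, 8.59 and 8.59 in KP, 8.01, 8.46 and 8.49 in KM and 5.73, 5.69 and 5.44 in KR, 7.41-fold lower (adjusted p = 1.39e-05). Of 9 laccases, which oxidise monolignols, 3 were lower and 0 higher. LAC24 read 7.77, 8.39 and 7.85 in KP, 10.38, 10.14 and 10.20 in KM and 6.11, 5.11 and 6.08 in KR. It was above KP in KM and below KP in KR (log2 difference of KR from KP -2.24, adjusted p = 0.00493). With KR replicate 3 alone its adjusted p was 0.0767. LAC19 had the same order of levels, with 6.98, 7.97 and 4.33. Of 29 cytochrome P450 genes 10 were lower and 1 higher, and 6 of the 10 also belong to the diterpenoid list. With KR replicate 3 alone, or with log2 values under 4 set to 4, 5 of these genes were called lower. Of 17 pathogenesis-related genes and chitinases 2 were lower, of which PBZ1 fell short of 2-fold without KR replicate 3, and the transcription factor gene WRKY62 fell by 2.52 ± 0.50 on the log2 scale to a level near background.

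Hormone lists other than abscisic acid differed in their share of calls. Of 36 jasmonate and JAZ genes 2 were higher (5.6%) and 4 lower (11.1%), against 2.09% and 4.03% of all genes. The lipoxygenase gene LOX3 read 3.55, 3.11 and 2.89 in KP, near background, and 5.35, 5.18 and 6.06 in KR, 5.07-fold higher (adjusted p = 0.00209). LOX2.1, also a lipoxygenase gene, rose by 2.57 ± 0.77 on the log2 scale, with adjusted p between 0.00929 and 0.235 over the alternatives and the call lost without KP replicate 3 or KR replicate 1. OPR10, of the oxophytodienoate reductase family, was 4.01-fold lower, at 7.54, 7.46 and 7.28 in KR against 9.35, 9.80 and 9.14 in KP. With KR replicate 3 alone 1 of the 4 lower calls was left. Brassinosteroid genes had 3 of 12 higher (25%) and 0 lower. They were the synthesis gene CYP90A4 (1.42) and the helix-loop-helix genes BU1 (1.85) and ILI6 (1.31), which promote lamina bending. CYP90A4 read 6.63, 6.95 and 6.42 in KP and 8.18, 8.26 and 7.82 in KR and was higher on all KR arrays. BU1 fell under the threshold with KR replicate 3 alone (adjusted p = 0.0656).

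Of 21 ethylene genes 2 were higher, the synthesis gene ACS2 and the receptor gene ETR2, and with KR replicate 3 alone 0 were called, at adjusted p of 0.112 and 0.0675. ACS2 read 5.35, 5.44 and 4.63 in KP and 7.06, 6.69 and 6.74 in KR, 3.23-fold higher (adjusted p = 0.00847), and KM was at 5.06. Of 29 cytokinin genes, the response regulators RR6 (1.15) and RR9 (1.08), which cytokinin induces, were higher and LOGL3 was lower. RR9 was lower in KM (8.60, 8.30 and 8.08) and higher in all KR arrays (10.91, 10.86 and 10.66) than in KP (10.17, 9.69 and 9.32). Its call was lost without KP replicate 3, as that of RR6 was without KR replicate 1. Of 59 auxin response genes 1 was higher and 1 lower, shares near or below the background. Of 12 gibberellin genes 0 were higher and 1 was lower (8.3%), a share that rests on 1 gene. With quantile normalization 1 gibberellin gene was higher and 0 were lower.

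Central metabolism held the largest rises of named genes. The amylase gene AMY1.1, which is made in germinating seeds, read 10.99, 3.49 and 2.54 in KP, 13.51, 13.29 and 13.28 in KM and 11.34, 12.23 and 11.05 in KR, so that a single KP array stood close to the KR level. Its log2 difference was 5.87 ± 1.81 (adjusted p = 0.0279), and it was 8.52 without KP replicate 1, 4.77 without KP replicate 2 and 4.30 without KP replicate 3. The call was lost under 9 of 16 alternatives, among them leaving out KP replicate 2 or 3 or KR replicate 1 or 2 (adjusted p up to 0.245 over all alternatives). CPDK2, a pyruvate phosphate dikinase gene that is also listed as PPDK2, was at 2.63, 3.12 and 2.62 in KP and 2.63, 2.61 and 2.58 in KM, near background, and at 6.12, 6.58 and 8.60 in KR, 19.9-fold over KP (adjusted p = 5.18e-04) and 11.8-fold without KR replicate 3. The glutamate synthase gene GLT2, which assimilates ammonium together with glutamine synthetase, went from 6.46, 5.99 and 6.03 in KP to 9.10, 9.39 and 9.60 in KR, 9.23-fold higher (adjusted p = 2.71e-05), with KM at 6.46. No other gene of the 10 in the nitrogen assimilation list was called.

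The sucrose synthase gene SUS4, which splits sucrose, was 4.03-fold higher in KR (10.69, 10.53 and 10.74) than in KP (8.94, 8.36 and 8.63), and KM was at 9.42. Of 8 genes that low oxygen induces, such as those of ethanol fermentation, 2 were higher and 0 lower, and all 8 had a positive log2 difference, with a median of 1.10. The pyruvate decarboxylase gene PDC2 read 11.27, 11.39 and 11.57 in KR against 9.54, 9.41 and 9.22 in KP, and its KM values of 10.83, 10.53 and 10.46 lay between. The alcohol dehydrogenase gene Adh2 was called with a log2 difference of 1.68 ± 0.54, and lost the call without any 1 of 5 arrays (adjusted p up to 0.134 over all alternatives). The haemoglobin genes HB2 and hb1 had log2 differences of 2.58 and 1.23 at adjusted p of 0.0618 and 0.113. The pantothenate synthesis gene KPHMT1 rose by 1.49 ± 0.12 and the inositol phosphate kinase gene ITPK3 by 1.25 ± 0.16 on the log2 scale, both on all 3 KR arrays.

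**Figure D5:**
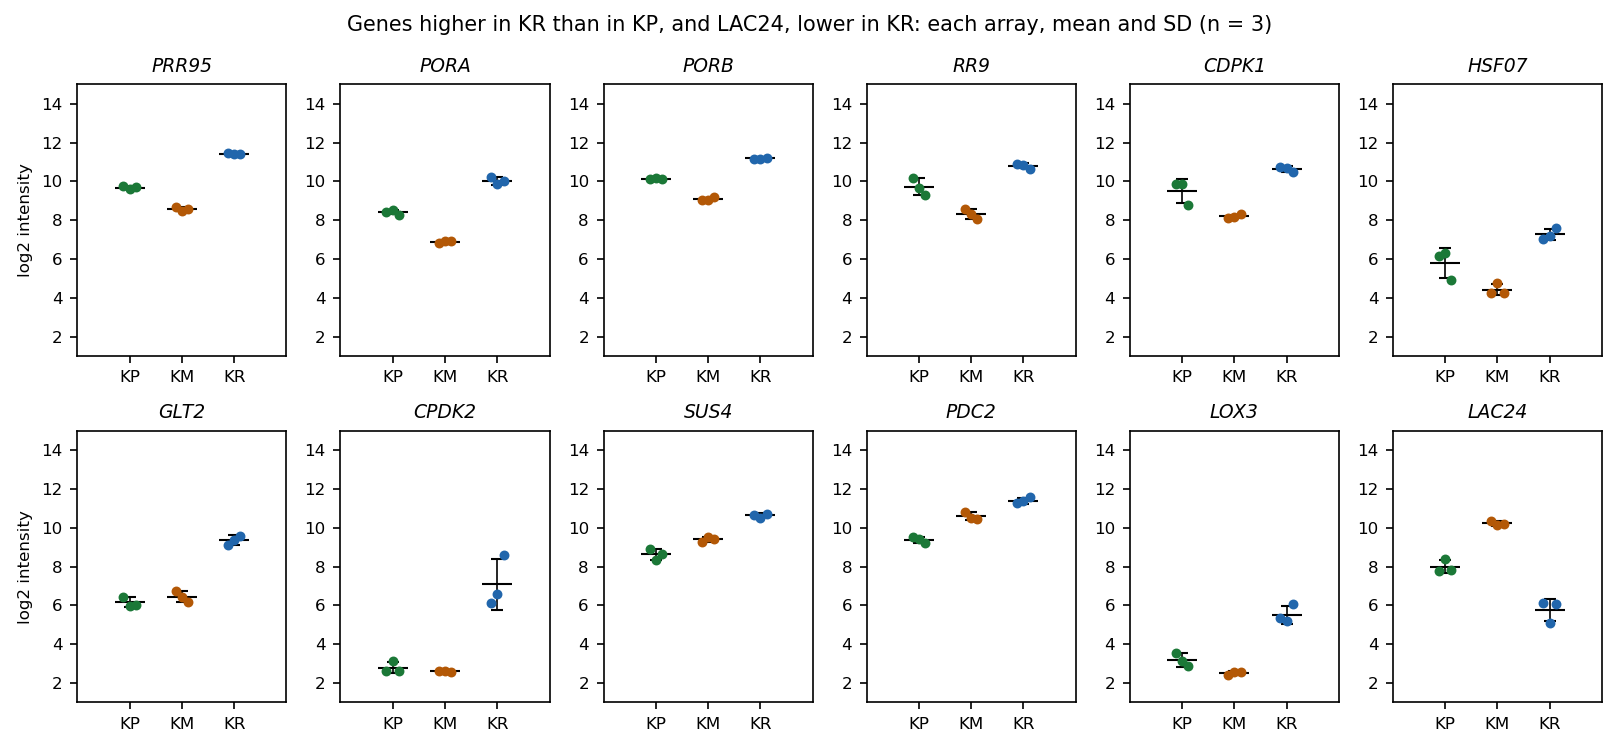
Each panel gives the log2 intensity on the y axis for the 3 arrays of KP, KM and KR, with the mean and SD (n = 3 arrays) as a bar with whiskers. PRR95, PORA, PORB, RR9, CDPK1 and HSF07 have KM below and KR above KP, and LAC24 has KM above and KR below KP.

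Signalling and transcription factor families had scattered calls. Of 46 calmodulin-like proteins and calcium-dependent kinases 1 was higher and 2 lower, of which CPK9 (6.26, 5.73 and 6.13 in KP, 4.53, 4.38 and 4.13 in KM and 4.54, 4.50 and 4.87 in KR) was not called in KR against KM. CDPK1 was past KP in the other direction, at 10.75, 10.69 and 10.48 in KR, 9.85, 9.85 and 8.80 in KP and 8.12, 8.17 and 8.30 in KM, but with KP replicate 3 left out its log2 difference was 0.79. The call of CDPK1 was also lost with limma on the 6 KP and KR arrays (adjusted p = 0.056) and with the methods' t-test (adjusted p = 0.0819). Of 46 heat shock proteins and heat stress factors 2 were higher and 6 lower. The small heat shock gene hsp17.9 was 4.19-fold higher on all KR arrays (8.55, 8.24 and 8.92 against 6.38, 6.66 and 6.47 in KP). The factor HSF07 was higher in KR than in KP by 1.47 ± 0.34 on the log2 scale, with KM below KP. Its call was lost with limma on the 6 KP and KR arrays (adjusted p = 0.0578) and with the methods' t-test (adjusted p = 0.0842). HSF1 fell by 1.68 ± 0.20. With KR replicate 3 alone 2 of the 6 falls were left.

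Of 47 homeobox genes 3 were lower and 0 higher, and with log2 values under 4 set to 4 only 1 was lower. Hox22, of the class with a leucine zipper, was at 4.49, 4.28 and 5.07 in KR, as in KM (4.87, 4.27 and 4.10), and at 8.48, 8.23 and 8.62 in KP, 14.2-fold lower (adjusted p = 4.00e-05). The MADS factor MADS27, which is known from nitrate responses of roots, was 3.83-fold lower in KR and was not called in KM. The squamosa promoter binding protein gene SPL2 was 5.17-fold lower, with 6.60 in KM and 6.71 in KR. CRSH2, a calcium-activated synthase of the alarmone ppGpp, fell 14.3-fold, from 8.29, 8.56 and 8.21 in KP to 4.39, 4.89 and 4.26 in KR, with KM at 10.15, 7.92 and 7.94, and the copies of this gene are alike, so the probe set may read more than 1. Of 10 MYB genes matched by name, 6 photoreceptor and 6 photoperiod genes 0 were called. The MYB list leaves out CCA1, LOC_Os02g46030 and LOC_Os06g51260, which the study's category table gives as MYB factors. These were lower in KR than in KP under every alternative, LOC_Os06g51260 with log2 differences of -3.87 to -3.18. The photoperiod list likewise leaves out HD2, which is counted with the clock genes. The photoreceptor list leaves out the cryptochrome family gene CRYD, which was lower under every alternative, with log2 differences of -2.19 to -1.59.

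Growth lists held few calls. Of 26 DNA replication genes 1, RPA70b, was higher (1.15), while 25 of 26 had a positive log2 difference with a median of 0.30. Of 41 cyclins and cyclin-dependent kinases 1 was higher and 30 had a positive difference, with a median of 0.19. Of all genes 60.7% had a positive difference. Both medians stayed positive after the arrays were brought to the same median. Of 32 cellulose synthase and xyloglucan genes and 5 histones 0 were called, and of 29 expansins EXPA1 was higher, though not without KP replicate 1, and EXLA4 lower. BURP16, of a family of cell wall proteins, was 5.08-fold higher in KR, with 12.78, 12.63 and 12.79 against 10.54, 10.54 and 10.09 in KP, and the phytosulfokine precursor gene PSK2, a peptide growth factor, was 3.44-fold higher. The pectin methylesterase inhibitor gene PMEI8 was lower, at 2.39, 3.76 and 3.40 in KR against 5.87, 7.06 and 6.86 in KP. Its KR mean was near background and the size of its fall is uncertain, with log2 differences of -2.60 to -3.78 over the alternatives.

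Some of the largest changes of any probe set had no gene name. The probe set with the largest fall, named by no annotation used here, read 8.13, 9.40 and 9.28 in KP, 10.39, 10.68 and 10.63 in KM and 2.75, 2.77 and 2.60 in KR. It was lower in KR than in KP by 6.23 ± 0.33 on the log2 scale, and KM lay above KP. Its KR mean was near background and the size of the fall is uncertain, with log2 differences of -6.63 to -4.94 over the alternatives. Another pair without a name, behind AMY1.1 the largest rises, rose by 4.98 ± 0.79 and 4.47 ± 0.27 on the log2 scale and were not called in KM. LOC_Os02g46030, a putative MYB factor outside the MYB list of named genes and among the 3 largest falls, read 7.97, 8.07 and 8.20 in KP, 2.60, 2.68 and 2.71 in KM and 2.81, 2.81 and 2.75 in KR, and its KM and KR values lay together below KP. Both were near background, so the size of this fall is uncertain too, with log2 differences of -5.39 to -4.08 over the alternatives. Among loci named by the study's category table, the putative peptide transporter LOC_Os02g46460 was at 5.04 in KM, 7.41 in KP and 9.34 in KR. The putative methyltransferase LOC_Os11g15040 was at 5.15, 6.57 and 9.21 in the same groups. In the other direction the putative short-chain dehydrogenase LOC_Os11g07930 was at 7.26 in KM, 5.47 in KP and 3.14 in KR.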

How the data were processed

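Whole-seedling RNA of 3 biological replicates each of KR, KP, KM and 0h was hybridised to Affymetrix rice arrays. The deposited intensity values were made by the authors with GCRMA in ArrayAssist 5.0 from scans read with GCOS 1.2.1, as the study's methods and the submitters' processing notes state, and lie on a linear scale. GCRMA corrects background by probe sequence and compresses low values, and the number of arrays limits the precision. Values were taken as log2 with a floor of 1, which changed 0 values. Groups follow the sample titles. The 0h arrays carry a tag for the deficient medium that goes against their title, which was followed. No batch or scan date is given in the sources used here.

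limma 3.58.1 in R 4.3.3 was fitted with 1 mean per group over all 12 arrays, and KR was set against KP. Adjusted p-values are Benjamini-Hochberg over 57258 probe sets. In simulated arrays with 50 probe sets at each size, 0%, 48%, 92% and 98% of 1.5, 2, 3 and 4-fold changes were called, and 0 of 57058 unchanged ones. A call needs at least 2-fold, so the shares at 1.5-fold and 2-fold are set mainly by that threshold. The simulated arrays had independent noise, few changed probe sets and no difference in brightness between groups. In the real comparison 21061 higher and 4193 lower probe sets had an adjusted p under 0.05. The simulated shares, with 0 false calls, therefore do not measure the error of the real calls. The annotation table gives 1 gene for 22436 probe sets, several for 95 and none for 34727, and 2456 genes have a name. A gene was read from the probe set with the highest mean over the 12 arrays. Different probe sets of a gene were not combined. The members, lists and tests were chosen with earlier results of these data known, and lists were trimmed by gene name. CPDK1 and CPDK2 were taken out of the calcium-dependent kinases after their values were seen.

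Named genes are the 20 that rose most and the 20 that fell most among called genes with a name whose arrays do not overlap, the 10 with the largest change on each side of KP relative to KM, up to 4 members of each of 55 lists with the smallest adjusted p, and the 3 probe sets of any kind at either extreme. FRO1, MHX1, Nrat1, LOC_Os02g46460, LOC_Os11g15040, LOC_Os11g07930, LOC_Os06g51260 and called list members beyond that rule were chosen after their values were seen. COPT1, SPL2, CRSH2 and further called genes with a name were added in the same way, whether or not the rule takes them. The rule takes 237 probe sets, and with these additions there were 330. Alternatives were other scalings, other sets of arrays, the methods' t-test, trend and robust variances, a replicate block, filters on low values, other fold thresholds and each array left out. Promoter motifs are not analysed here, since no sequence was at hand. The scans, PCR measurements and the authors' own comparisons were not used here.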

Additional observations from a re-analysis of the deposited data

Results flagged for a closer look

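Control probe sets for ribosomal RNA, which the comparisons above do not use, were brighter on KR replicates 1 and 2 than on any KP array, and this is what marked them for a closer look. In log2 values, the first 18S probe set read 9.26 and 9.03 on these 2 arrays, where the KP arrays reached at most 5.70. The 25S probe set read 9.32 and 8.45, against at most 5.95 in KP. The second 18S probe set read 9.75 and 9.36, against at most 5.81, and the 28S probe set 11.22 and 10.53, against at most 8.55. KR replicate 3 read 5.08, 5.26, 5.65 and 7.01 on the same 4 probe sets and lay among the KP arrays. The part of ribosomal RNA in the results was not tested.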

How the results depend on the processing

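The counts of 657 higher and 1177 lower probe sets and of 120 called list genes stayed within 1.5 times of these values under every alternative except the fold threshold. At 1.5-fold there were 2250 higher and 2444 lower, at 4-fold 121 and 277, and with no fold threshold 21061 and 4193, so that the split between rises and falls turns over among small changes. These counts were made on the deposited scale only, on which the KR arrays were slightly brighter as a whole. The median change was 0.05 on that scale and -0.06 with arrays at the same median. The part of this offset in the small rises was not tested. Leaving out 1 array at a time gave 604 to 672 higher, 1124 to 1214 lower and 107 to 118 list genes. KR replicate 3 alone, an alternative chosen after seeing the data in which the lone array is assumed to vary like the other groups, gave 638, 989 and 89. The methods' t-test gave 542 and 963. Setting log2 values under 4 to 4 gave 521 and 895. With a replicate block the counts were 645 and 1156, and 117 list genes. Deviations of KP and KR arrays with the same number correlated at -0.05, 0.12 and -0.02, and those with different numbers at -0.20 to 0.19. With 3 arrays a group these values cannot tell whether samples with the same number were grown or processed together. Of 193 named genes and probe sets called, 104 kept their call under every alternative, 89 lost it under at least 1 and 0 changed direction. The number of arrays limits the precision. The promoter motif search was not run.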
